A study of Mus musculus with 20 samples.

Results

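RNA of the soleus, a slow-fiber muscle of the hind limb, was compared between Lmna p.H222P/H222P mice (H222P) and wild-type (WT) mice at the age of 80 days, with 5 arrays in each group. The H222P mice carry the p.H222P change of Lmna on both copies in the germ line, so that every cell making A-type lamins has it. The WT mice have it on neither copy. Both groups are of the 129S2/SvPasCrl background. The paper lists the WT mice as from Janvier Labs and the H222P mice as provided by an INSERM laboratory. As listed, origin goes with genotype, so a difference between the groups cannot be credited to genotype alone. The part of origin was not tested. The methods state that only males were used, and the labels place both groups at the pre symptomatic stage. The genes described are the 22180 that have at least 1 probe set with exactly 1 gene symbol, out of 35916 probe sets on the GeneChip Mouse Gene 2.0 ST array. A gene with several such probe sets is given by the brightest. These are all genes so measured in the series, and the 10 arrays are part of 20, the others being 5 H222P and 5 WT mice of 200 days. All values are log2 signals, so a difference of 1 is a 2-fold change.

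Lamins A and C, both made from Lmna, form a meshwork beneath the inner nuclear membrane that gives the nucleus its stiffness, anchors chromatin and, through the proteins of the nuclear envelope, ties the nucleus to the cytoskeleton. Changes in LMNA cause Emery-Dreifuss muscular dystrophy in humans, in which skeletal muscle weakens and the heart conducts poorly. The soleus holds posture by sustained contraction and is built of slow and fast oxidative fibers with many capillaries, and the RNA measured is that of all its cells. In such bulk samples fewer cells of a type and less RNA per cell cannot be told apart.

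Values are listed for H222P mice 549, 94, 95, 96 and 97 and for WT mice 687, 688, 689, 691 and 692, always in this order. Lmna itself read 7.10, 6.80, 6.97, 6.74 and 6.64 in the H222P mice and 6.62, 6.45, 6.51, 6.42 and 6.42 in the WT mice. Every H222P value lay above every WT value, by little, and the difference was 0.36 (SE 0.12, adjusted p = 0.238), which did not pass the test. The probe set reads the amount of RNA and not the changed base, so the genotypes rest on the labels. Slow-fiber markers such as Myh7 (10.7 to 11.1) and fast oxidative markers such as Myh2 (11.6 to 11.7) lay among the brightest genes of all 10 arrays, and none of the 10 soleus markers examined passed the test between genotypes. Array medians ran from 3.98 to 4.07, and arrays correlated at 0.982 to 0.990 within the H222P group, 0.984 to 0.987 within the WT group and 0.978 to 0.986 between groups, over probe sets. H222P mouse 549 stood apart from the rest of its group in several values given below, and it was the highest of the 10 arrays for 16.7% of all genes, the other arrays for 7.27% to 11.1%.

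At 80 days the soleus of H222P mice differed from WT soleus in few genes, and more of them were higher than lower. The genes that rose most were Nup210l, a relative of a nuclear pore membrane protein, Uchl1, a ubiquitin hydrolase known from neurons, Cdkn1a, which encodes the cell cycle inhibitor p21, and Ahnak2, a giant scaffold protein. Those that fell most were Ifi203-ps, a pseudogene of the interferon-inducible p200 family, Pcp4, a calmodulin-binding peptide, and Myl10, a regulatory myosin light chain. Of 22180 genes, 77 were higher (0.347%) and 24 lower (0.108%) at an adjusted p under 0.05 (limma, all such values below likewise), together 0.455%. Among these 101 and in the gene lists, some genes are named that were chosen after their values were seen. A difference of at least 2-fold was reached by 17 of the higher genes (0.0766% of all genes) and 7 of the lower genes (0.0316%). The groups did not overlap in 73 of the 77 and 23 of the 24, against 2.42% of all genes with every H222P value above and 1.09% with every H222P value below the WT values. Counts of called or non-overlapping genes in the lists below are to be read beside these shares of all genes. Unadjusted, 10.6% of genes had a p under 0.05 (6.98% higher and 3.65% lower). The median difference over all genes was 0.01, with 53.3% of genes above 0. Signals below the array medians of 3.98 to 4.07 are not shown to be above background. Besides genes for which this is stated below, the WT means of Cd109 (3.22), Tekt1 (3.20) and Adh7 (3.43) were among them. So were the H222P means of Map3k6 (3.93) and Brinp2 (3.64). For Mir487b (H222P 3.14, WT 2.57), Mir188 (H222P 2.97, WT 3.93) and the pseudogene Rps15a-ps8 (H222P 2.93, WT 2.09) both means were.

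**Figure D1:**
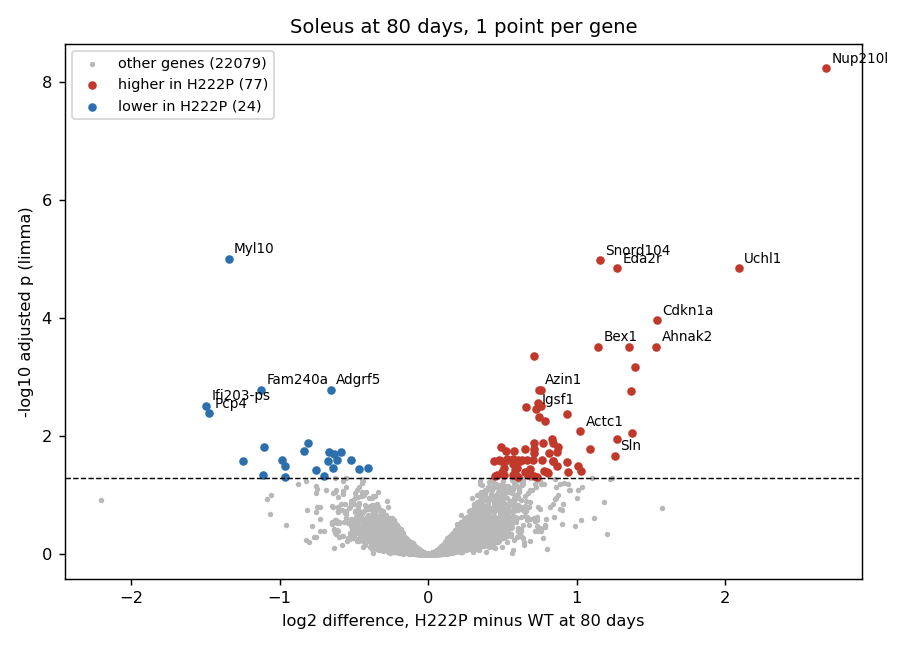
Each point is 1 of 22180 genes, with the log2 difference between H222P and WT soleus at 80 days on the x axis and the negative log10 of the adjusted p on the y axis, and the dashed line at an adjusted p of 0.05. The 77 higher and 24 lower genes are coloured, and Nup210l stands alone at the upper right.

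A call is described as lost without an array where the adjusted p was 0.05 or more once that array was left out. By this measure 35 of the 101 genes kept the call whichever array was omitted and 66 lost it at least once, while none changed sign. The number of higher genes fell from 77 to 36 without H222P mouse 549 or without WT mouse 688, to 41 without WT 691, 43 without WT 692, 45 without H222P 95, 49 without WT 689 and 50 without H222P 94. That of lower genes fell from 24 to 11 without H222P 94 or WT 692, 13 without H222P 97 or WT 688, and 15 without H222P 549 or WT 689, and no other omission moved either count by more than 1.5 times.

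Nup210l had the largest difference of all genes. Its protein resembles Nup210, which spans the nuclear membrane at the pore, and it is known mainly from the testis. The signal was 6.16, 6.07, 5.86, 5.74 and 6.11 in H222P mice and 3.31, 2.96, 3.32, 3.53 and 3.44 in WT mice. All 5 H222P arrays lay more than 2 log2 units above all WT arrays, and within each group the values stayed close together. The difference was 2.68 (SE 0.16, 6.39-fold, adjusted p = 5.79e-09), and the adjusted p was at most 6.83e-08 whichever array was left out. The WT signal lay below the array medians of 3.98 to 4.07 and the files hold no detection calls, so it is not shown to be above background and the fold is to be read as a lower bound. No other nuclear pore gene passed: 1 of 24 rose and 0 fell, with a median of 0.08.

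Tmem43 encodes LUMA, an inner nuclear membrane protein that binds lamins and emerin. It read 6.75, 6.38, 6.56, 6.11 and 6.30 in H222P mice and 5.73, 5.77, 5.69, 5.02 and 5.57 in WT mice. The groups did not overlap, and WT mouse 691 was the lowest of its group. The difference was 0.87 (SE 0.18, 1.82-fold, adjusted p = 0.0317). The call was lost without any 1 H222P mouse other than 96 or any 1 WT mouse other than 687, with the adjusted p at most 0.104. Tmem43 was the only one of 24 nuclear envelope and lamina genes to pass, and the list had a median of 0.00. Emd, which encodes emerin, differed by 0.04 (adjusted p = 0.937), and Lmnb1, which encodes lamin B1, by 0.12 (adjusted p = 0.866). Tor3a, of the torsin family of ATPases that work at the nuclear envelope and endoplasmic reticulum, was called at 0.50 (adjusted p = 0.0406), a call lost whichever array was left out, with the adjusted p at most 0.112.

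By position, Nup210l is the 60th measured gene after Lmna on chromosome 3 by RefSeq start order, and it was the only gene called among the 60 measured genes before and the 60 after Lmna. In that window 6 of 120 genes had groups that did not overlap, against 3.5% of all genes in either direction, and the median difference was 0.04. Outside the window, and chosen after the values were seen, other called genes lay close to Nup210l: Rab13 was the 62nd, S100a4 the 81st and S100a6 the 83rd measured gene after Lmna. In all, 11 of 1051 measured genes of chromosome 3 were called (1.05%), of which 9, all higher, lay after Lmna in gene order and 2, Anxa5 (higher) and Foxo1 (lower), before it. On the X chromosome 11 of 899 were called (1.22%), and on the other numbered chromosomes the share ran from 0% to 0.651%. Several called genes, all higher, were direct neighbours among measured genes. They were Ppm1j and Rhoc on chromosome 3, Arhgef39 and Car9 on chromosome 4, and Tceal5, Bex1 and Tceal7 on the X chromosome. These positions were looked up after the calls were known, and their relation to the differences was not tested.

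Cdkn1a and Eda2r, both known targets of the tumour suppressor p53, rose. Cdkn1a read 8.79, 8.97, 9.32, 9.20 and 8.61 in H222P mice and 7.12, 7.37, 7.28, 8.16 and 7.25 in WT mice. The groups did not overlap, though WT mouse 691 lay well above the other WT mice. The difference was 1.54 (SE 0.18, 2.91-fold, adjusted p = 0.000106). Eda2r, a receptor of the TNF receptor family that binds ectodysplasin A2, read 6.16, 5.77, 5.78, 5.51 and 5.90 in H222P mice and 4.71, 4.32, 4.56, 4.57 and 4.61 in WT mice. Here the lowest H222P mouse was higher than the highest WT mouse by more than the whole WT range. The difference was 1.27 (SE 0.13, 2.41-fold, adjusted p = 1.4e-05). Both calls held whichever array was left out. Of the p53 target list 2 of 28 rose and 0 fell, and the median was 0.08, against 0.01 over all genes. Mdm2, the ligase that degrades p53 and is itself a target, differed by 0.42 (adjusted p = 0.0572), and Tnfrsf23, a decoy death receptor, by 1.10 (adjusted p = 0.0504), neither of which passed. Rgcc, a regulator of the cell cycle, rose by 0.93 (SE 0.15, 1.91-fold, adjusted p = 0.00415), with every H222P array above every WT array. Of 23 proliferation genes none passed, and their median was 0.14.

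Uchl1 and Bex1, genes known from denervated and regenerating fibers, rose. Uchl1 read 8.02, 7.49, 7.33, 6.86 and 7.93 in H222P mice and 6.03, 5.23, 5.61, 5.36 and 4.95 in WT mice. H222P mice 549 and 97 were the highest and H222P mouse 96 the lowest of the group, still above every WT mouse. The difference was 2.09 (SE 0.21, 4.26-fold, adjusted p = 1.4e-05), and its call held whichever array was left out. Uchl1 has 2 probe sets, and over their mean the difference was 1.02 (adjusted p = 0.000721). This leaves almost no difference for the other probe set, so the rise rests on the brightest one. Of the denervation and neuromuscular junction list Uchl1 and Bex1 rose (2 of 23 rose and 0 fell), and the median was 0.10. Myog, the myogenic factor that rises on denervation, differed by 0.53 (adjusted p = 0.112), and Ncam1, a cell adhesion molecule of immature and denervated fibers, by 0.60 (adjusted p = 0.109). In the regeneration and satellite cell list 2 of 27 rose and 0 fell, with a median of 0.15, the called members being Igf2 and Gpnmb. Chrna10, a nicotinic receptor subunit known from the inner ear and not from the muscle endplate, was called at 0.67 (1.59-fold, adjusted p = 0.0246, lost without H222P 549, 94 or 97 or WT 689 or 691, highest p 0.0741).

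Bex1 and the Tceal genes are small, related genes on the X chromosome, and Bex1 is known from neurons and from regenerating muscle. Bex1 read 8.74, 8.15, 7.92, 7.89 and 8.19 in H222P mice and 7.04, 6.99, 6.87, 6.85 and 7.40 in WT mice. All H222P mice were higher than all WT mice, with H222P mouse 549 the highest and WT mouse 692 nearest from below. The difference was 1.15 (SE 0.14, 2.21-fold, adjusted p = 0.000302). Tceal7 rose by 1.37 (SE 0.23, 2.58-fold, adjusted p = 0.0086) and Tceal5 by 0.71 (SE 0.13, 1.64-fold, adjusted p = 0.0128), and the calls of all 3 genes held whichever array was left out. Of the 11 measured members of the family 3 rose and 0 fell, and the median was 0.33. All H222P values lay above all WT values in 5 and below in 0, against 2.42% and 1.09% of all genes.

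Imprinted genes are expressed from 1 parental copy, and many of them drive growth before birth and fall silent afterwards. Of the imprinted list 4 of 25 rose and 0 fell, and the median was 0.03. The 4 that rose were Slc38a4, an amino acid transporter (0.58, 1.49-fold, adjusted p = 0.0174, lost without H222P 97 or WT 692, highest p 0.0591), Peg3, a paternally expressed zinc finger protein (0.78, 1.72-fold, adjusted p = 0.0382, lost without any 1 H222P mouse other than 95 or any 1 WT mouse other than 689, highest p 0.103), Igf2, a fetal growth factor (0.65, 1.57-fold, adjusted p = 0.0408, lost without any 1 H222P mouse other than 96 or any 1 WT mouse other than 687, highest p 0.123), and Rian, a long noncoding RNA (0.58, 1.5-fold, adjusted p = 0.0432, lost without any 1 H222P mouse other than 97 or any 1 of the WT mice, highest p 0.124). Igf2 read 6.51, 6.18, 6.08, 6.02 and 6.35 in H222P mice and 5.75, 5.56, 5.32, 5.61 and 5.64 in WT mice. The groups lay close to each other without overlapping.

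**Figure D2:**
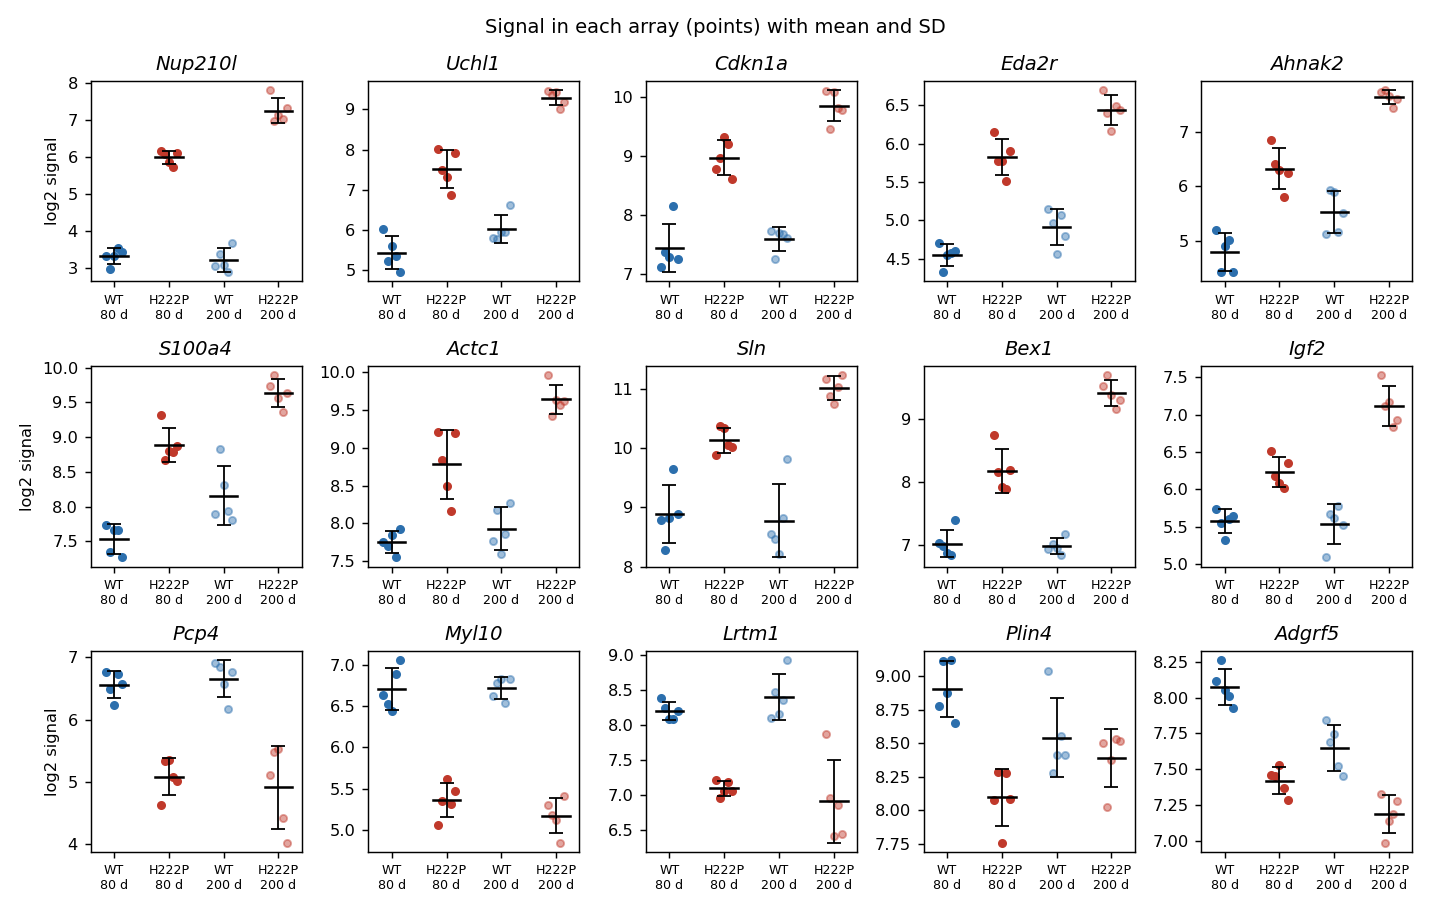
Each panel gives the log2 signal of 1 gene in every array (points), with the mean and SD as black bars, for WT and H222P soleus at 80 days and, in paler colour, at 200 days. At 80 days the groups do not overlap in any of the 15 genes shown.

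Actc1, the actin of heart and embryonic muscle, rose and Myl10 fell, while most sarcomere genes did not pass. Actc1 read 9.21, 8.84, 8.50, 8.16 and 9.19 in H222P mice and 7.76, 7.70, 7.84, 7.55 and 7.92 in WT mice. H222P mouse 96 came nearest to the WT values, and no value of the groups overlapped. The difference was 1.03 (SE 0.17, 2.04-fold, adjusted p = 0.0082) and held whichever array was left out. Csrp3, the muscle LIM protein of the Z-disc, read 11.30, 11.26, 11.40, 11.02 and 11.45 in H222P mice and 10.70, 10.79, 10.34, 10.54 and 10.49 in WT mice. It was among the brightest genes of the array and its groups did not overlap. The difference was 0.71 (SE 0.13, 1.64-fold, adjusted p = 0.0162). The call was lost without WT 689, with the adjusted p at most 0.0518.

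Myl10 is a regulatory light chain of myosin. It read 5.06, 5.35, 5.62, 5.32 and 5.47 in H222P mice and 6.64, 6.53, 6.44, 6.89 and 7.05 in WT mice. Every H222P mouse was lower than every WT mouse. The difference was -1.34 (SE 0.13, 2.54-fold, adjusted p = 9.8e-06), and the call held whichever array was left out. Of thin filament genes 1 of 21 rose and 0 fell (median 0.04), of thick filament and M-band genes 0 of 23 rose and 1 fell (median 0.08), and of Z-disc genes 1 of 30 rose and 0 fell (median 0.09). Ankrd1, a stretch-responsive Z-disc protein, differed by 1.03 without passing (adjusted p = 0.265). Of 12 developmental and cardiac forms Actc1 and Sln rose and none fell, with a median of 0.32. The mean of that list, less its WT mean, ranged from 0.16 to 0.67 in H222P mice and -0.06 to 0.05 in WT mice, and without H222P mouse 94 or 95 or WT mouse 688, 689 or 692 Actc1 was the only member called. Embryonic myosin Myh3 differed by 0.89 (adjusted p = 0.0634). Slow fiber genes had a median of -0.05, with Csrp3 the only 1 of 16 called, and none of 14 fast fiber genes was called. Ahnak2, which associates with the costamere, read 6.85, 6.41, 6.31, 5.81 and 6.25 in H222P mice and 5.20, 4.42, 4.90, 5.02 and 4.42 in WT mice. The groups did not overlap, and the difference was 1.54 (SE 0.19, 2.9-fold, adjusted p = 0.000302), a call that held whichever array was left out. Ahnak2 has 2 probe sets, and its lowest difference under the alternatives that leave out no 80-day array was 1.03. Ahnak2 was the only one of 25 costamere genes to pass. All H222P values lay above all WT values in 6 of the 25 and below in 1, against 2.42% and 1.09% of all genes.

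A CArG box is the sequence bound by serum response factor in promoters of muscle actin genes. Of the 58 higher genes with a promoter found, 4 held it (6.9%), Actc1, Anxa5, Arrdc4 and Igf2. It was held by 1.67% of the 16986 measured genes with a promoter found and by none of 15 such lower genes. Promoters are windows from 250 bases before to 50 after the start site, from RefSeq (GRCm38.p6), searched on both strands. The 3 that hold the box before the start site are printed from 250 bases before it up to it, 5′ to 3′, with the box in capitals, 47 bases before the start site in Actc1, 210 in Arrdc4 and 155 in Igf2.
Actc1, chr2:114052876-114053125, minus strand: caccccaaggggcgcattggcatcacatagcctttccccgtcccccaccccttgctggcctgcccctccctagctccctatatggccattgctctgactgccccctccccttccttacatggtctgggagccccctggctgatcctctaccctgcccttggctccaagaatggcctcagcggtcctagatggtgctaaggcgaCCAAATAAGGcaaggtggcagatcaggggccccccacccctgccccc
Arrdc4, chr7:68749239-68749488, minus strand: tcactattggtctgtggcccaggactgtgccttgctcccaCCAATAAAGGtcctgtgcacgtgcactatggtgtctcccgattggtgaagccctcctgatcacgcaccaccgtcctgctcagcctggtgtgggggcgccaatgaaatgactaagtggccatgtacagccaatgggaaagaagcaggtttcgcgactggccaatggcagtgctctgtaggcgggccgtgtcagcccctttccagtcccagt
Igf2, chr7:142661272-142661521, minus strand: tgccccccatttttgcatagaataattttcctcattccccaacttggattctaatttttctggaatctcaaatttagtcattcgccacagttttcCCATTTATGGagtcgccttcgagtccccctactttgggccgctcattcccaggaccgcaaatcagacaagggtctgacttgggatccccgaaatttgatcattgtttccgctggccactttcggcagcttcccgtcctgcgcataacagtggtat
Arrdc4, an arrestin-like protein, was called at 0.68 (1.6-fold, adjusted p = 0.0382, lost without any 1 of the H222P mice or any 1 WT mouse other than 687, highest p 0.104). The E-box CACGTG, bound by clock proteins, was held by 19% of the higher genes with a promoter found and 9.19% of all such genes. The heat shock element GAANNTTC was held by 15.5% and 8.18%, and the myogenic E-box CAGCTG by 25.9% and 18.1%. The AP-1 site TGANTCA was held by 10.3% and 8.42%, the p53 half-site by 12.1% and 8.71%, and the forkhead site TGTTTAC by 3.45% and 3.54%. Among the 15 lower genes with a promoter found, 1 gene is 6.67%. The shares there were 6.67% for CACGTG, 0% for the heat shock element and 26.7% for CAGCTG. They were 13.3% for the AP-1 site, 13.3% for the p53 half-site and 0% for the forkhead site. CACGTG and CAGCTG share no match and each reads the same on both strands. The motifs were chosen with the called genes known, and a match is only a run of letters in the window.

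Sln, which encodes sarcolipin, an inhibitor of the calcium pump of the sarcoplasmic reticulum, rose, and Pcp4 fell. Sln read 9.89, 10.38, 10.35, 10.06 and 10.02 in H222P mice and 8.79, 8.28, 8.82, 9.64 and 8.88 in WT mice. WT mouse 691 reached nearest to the H222P values, and the groups did not overlap. The difference was 1.25 (SE 0.24, 2.39-fold, adjusted p = 0.0211). The call was lost without H222P 94 or 95 or WT 688, 689 or 692, with the adjusted p at most 0.0719. Pcp4 read 4.63, 5.34, 5.35, 5.08 and 5.02 in H222P mice and 6.77, 6.49, 6.23, 6.73 and 6.57 in WT mice. H222P mouse 549 was the lowest of all, and every H222P mouse was below every WT mouse. The difference was -1.47 (SE 0.23, 2.78-fold, adjusted p = 0.00404), and the call held whichever array was left out. No other of the 30 calcium handling genes passed, and the median was 0.03.

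S100a4, a calcium-binding protein of motile and connective tissue cells, read 9.31, 8.67, 8.80, 8.79 and 8.87 in H222P mice and 7.74, 7.34, 7.66, 7.67 and 7.27 in WT mice. The gap between the groups was wider than the range within either, and mouse 549 was highest. The difference was 1.35 (SE 0.17, 2.55-fold, adjusted p = 0.000302). S100a6 rose by 0.49 (SE 0.09, 1.4-fold, adjusted p = 0.0149) from an already bright signal of 10.64 ± 0.12 (SD, n = 5). Anxa5, which binds phosphatidylserine on membranes, rose by 0.74 (SE 0.11, 1.67-fold, adjusted p = 0.00273), and Lgals1, a galectin secreted by many cells including muscle, by 0.66 (SE 0.10, 1.58-fold, adjusted p = 0.00323). All 4 calls held whichever array was left out. Cd109, a membrane protein that binds TGF-beta, was called at 0.81 (1.76-fold, adjusted p = 0.0192, lost without H222P 549 or 97 or WT 688 or 692, highest p 0.0668). Gdf11, a close relative of myostatin, was called at 0.87 (1.83-fold, adjusted p = 0.015, lost without WT 688, highest p 0.0541), alone among 32 genes of TGF-beta family signalling (median 0.07).

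Arhgef39, a guanine nucleotide exchange factor, and Rab13 rose, while genes of actin dynamics did not pass. Arhgef39 rose by 0.76 (SE 0.11, 1.69-fold, adjusted p = 0.00162) and Rab13, which acts at cell junctions and in membrane traffic, by 0.78 (SE 0.13, 1.72-fold, adjusted p = 0.00545). The WT mean of Arhgef39, 3.66, lay below the array medians and is not shown to be above background. Rab26os, a transcript opposite to Rab26, read 8.002, 7.19, 7.24, 7.42 and 7.33 in H222P mice and 6.23, 5.74, 6.28, 5.84 and 6.14 in WT mice. H222P mouse 549 was the highest of its group and no value overlapped, and the difference was 1.39 (SE 0.19, 2.63-fold, adjusted p = 0.000663). All 3 calls held whichever array was left out. Of 46 genes of actin dynamics none passed, and the median was 0.09. All H222P values lay above all WT values in 7 and below in 0, against 2.42% and 1.09% of all genes. Cfl1, which encodes cofilin-1, read 7.59, 7.11, 7.05, 7.27 and 7.16 in H222P mice and 7.21, 6.83, 7.18, 7.28 and 7.25 in WT mice, so that the groups overlapped. Its difference was 0.09 (SE 0.11, adjusted p = 0.865). Cfl2, the muscle cofilin, differed by 0.09 (adjusted p = 0.801), Pfn1, profilin-1, by 0.21 (adjusted p = 0.45) and Wasl, N-WASP, by 0.19 (adjusted p = 0.518). None of 24 immediate early genes passed (median 0.09). Their list mean, less its WT mean, was 0.63 in mouse 549 and -0.14 to 0.27 in the other H222P mice, and the median ran from -0.01 without WT mouse 689 and 0.00 without mouse 549 to 0.20 without H222P mouse 97. Actr2 has no probe set with 1 symbol and was not analysed here.

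Most genes of the extracellular matrix and fibroblast lists lay above 0 without passing the test. On the matrix list of 39 genes S100a4, described above as a calcium-binding protein, was the only one called. The other 38 did not pass. Of the 39, 37 lay above 0, and the median was 0.27. Col1a2 and Col3a1, chains of the fibrillar collagens, differed by 0.48 (adjusted p = 0.443) and 0.61 (adjusted p = 0.402). The mean of the list, less its WT mean, ranged from 0.23 to 0.60 in H222P mice and -0.14 to 0.18 in WT mice, and mouse 549 gave the upper end. Without mouse 549 the median was 0.23 and 1 gene was called. Without WT mouse 687 the median was 0.31 and 4 genes were called, and without H222P mouse 96 there were 3. Of 15 fibroblast markers none passed, 14 lay above 0 and the median was 0.36, with list means of 0.22 to 0.48 in H222P mice and -0.15 to 0.21 in WT mice. P3h2, a collagen prolyl hydroxylase outside these lists, rose by 0.84 (SE 0.15, 1.79-fold, adjusted p = 0.0129) and kept its call whichever array was left out.

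Tendon markers gave the most calls among lists of other tissues, 3 of 16. They were Tnmd, tenomodulin (0.93, 1.91-fold, adjusted p = 0.0269, lost without H222P 94, 95 or 97 or any 1 WT mouse other than 687, highest p 0.0851), Cilp, a cartilage matrix protein (0.94, 1.92-fold, adjusted p = 0.0406, lost without any 1 H222P mouse other than 96 or any 1 WT mouse other than 687, highest p 0.108), and Scx, scleraxis, the transcription factor of tendon (0.74, 1.66-fold, adjusted p = 0.0485, lost without any 1 H222P mouse other than 97 or any 1 of the WT mice, highest p 0.141). Tnmd read 7.24, 7.73, 7.41, 7.38 and 7.59 in H222P mice and 7.48, 6.33, 6.06, 6.53 and 6.27 in WT mice. WT mouse 687 lay within the H222P range, and the other 4 WT mice lay below it. The list mean, less its WT mean, ranged from 0.24 to 0.58 in H222P mice and -0.17 to 0.45 in WT mice, WT mouse 687 giving the WT maximum, and the median was 0.30. No tendon marker was called without H222P 94 or 95 or without WT 688, 689, 691 or 692, 1 without H222P 549 or 97, and 3 without H222P 96 or WT 687, the median without WT 687 being 0.44. The part of tendon tissue in the matrix and fibroblast values was not tested. Timp4, an inhibitor of matrix metalloproteases, was called at -1.11 (2.16-fold, adjusted p = 0.0448, lost without any 1 H222P mouse other than 96 or any 1 of the WT mice, highest p 0.128). Adamts8, a secreted metalloprotease, was called at -1.24 (2.37-fold, adjusted p = 0.0263, lost without H222P 94, 96 or 97 or any 1 WT mouse other than 692, highest p 0.0792), and its groups overlapped.

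**Figure D3:**
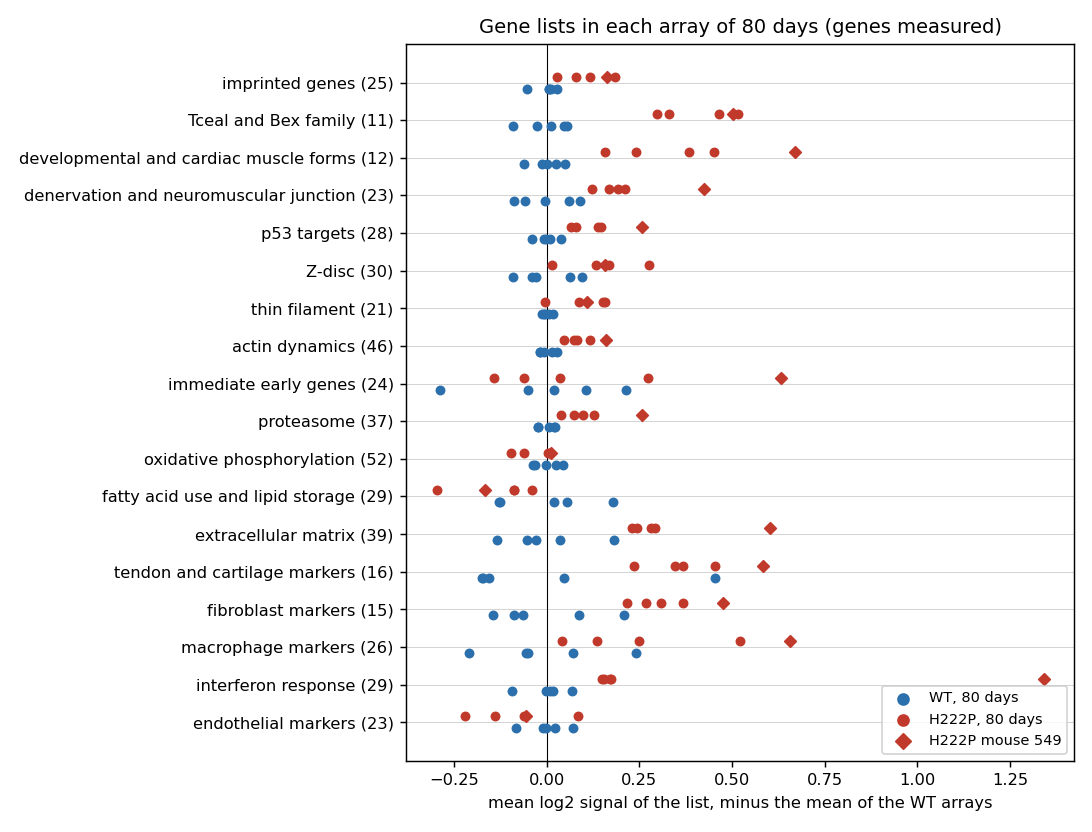
Each point is 1 array of 80 days, placed by the mean log2 signal of a gene list less the mean of the WT arrays, with H222P mouse 549 as a diamond. Mouse 549 lies at 1.34 in the interferon list, where the other H222P mice lie at 0.15 to 0.17, and WT mouse 687 lies at 0.45 in the tendon list.

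Among immune genes few were called. Of 26 macrophage markers only Gpnmb, a glycoprotein of activated macrophages, was called (0.81, 1.75-fold, adjusted p = 0.042, lost without any 1 H222P mouse other than 95 or any 1 of the WT mice, highest p 0.126), 23 lay above 0, and the median was 0.29. The list mean, less its WT mean, ranged from 0.04 to 0.66 in H222P mice and -0.21 to 0.24 in WT mice, so that the groups overlapped. Cd68, a lysosomal protein of macrophages, differed by 1.01 (adjusted p = 0.0822). No lymphocyte marker and no granulocyte or mast cell marker passed, with medians of 0.00 and 0.01. Ptafr, the receptor of platelet-activating factor, was called at 0.62 (1.54-fold, adjusted p = 0.0264, lost without any 1 H222P mouse other than 97 or any 1 WT mouse other than 692, highest p 0.08).

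The interferon response list had the highest median of any list other than the study's own choice of genes for RT-qPCR, 0.40, with no gene called among 29, and its highest values came from 1 mouse. H222P mouse 549 was the highest of the 10 arrays for 26 of the 29 genes, against 16.7% of all genes, and 18 of the 29 exceeded the WT mean by more than 1. The median of its differences from the WT mean was 1.53, and that of the other 4 H222P mice was 0.13. Isg15, a ubiquitin-like protein induced by interferon, read 5.995, 3.92, 4.15, 4.05 and 4.03 in H222P mice and 3.66, 3.50, 3.72, 3.58 and 4.09 in WT mice. Only mouse 549 stood far from the rest. Bst2, or tetherin, which holds budding viruses at the cell surface, read 5.75, 4.61, 4.47, 4.404 and 4.37 in H222P mice and 3.42, 3.67, 3.59, 3.68 and 4.08 in WT mice. Here the other 4 H222P mice were also above every WT mouse, and the difference of 1.03 had an adjusted p of 0.0711. Without mouse 549 the list median was 0.13.

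**Figure D4:**
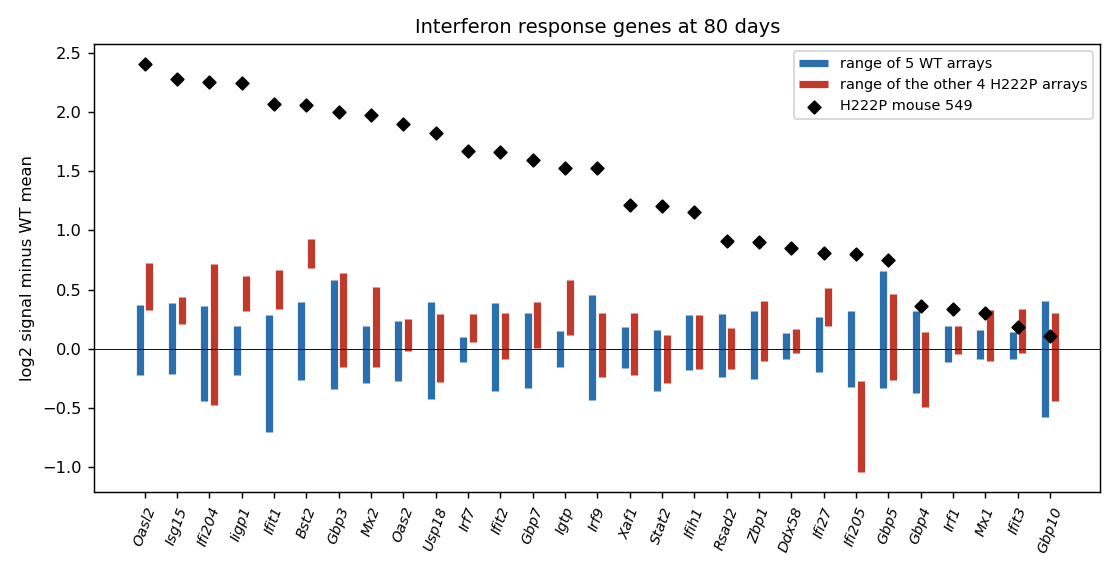
For each of 29 interferon response genes, the log2 signal less the WT mean is given for H222P mouse 549 (diamonds), with bars for the range of the 5 WT mice and of the other 4 H222P mice. Mouse 549 is the highest array for 26 genes, and the bars of the other H222P mice lie near those of the WT mice for most.

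A neighbouring pair of the p200 family of interferon-inducible genes on chromosome 1 moved in opposite directions. Ifi203-ps read 5.07, 5.10, 4.16, 5.005 and 5.61 in H222P mice and 6.83, 6.39, 6.93, 5.98 and 6.28 in WT mice. All H222P mice were lower, and mouse 549 lay within the range of the other H222P mice. The difference was -1.49 (SE 0.23, 2.82-fold, adjusted p = 0.00302) and held whichever array was left out. Ifi202b read 3.54, 3.12, 3.38, 3.08 and 2.77 in H222P mice and 2.21, 2.04, 2.15, 2.31 and 2.12 in WT mice. Both groups lay below the array medians and are not shown to be above background. Its difference was 1.01 (SE 0.21, 2.01-fold, adjusted p = 0.0312). The call was lost without H222P 549, 94 or 95 or any 1 of the WT mice, with the adjusted p at most 0.103. Genes of this family are near-identical in places, so their probes could share signal, which was not tested.

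Few metabolic genes were called. Plin4, a coat protein of lipid droplets, read 8.08, 8.29, 7.76, 8.28 and 8.08 in H222P mice and 8.78, 9.12, 8.88, 9.12 and 8.65 in WT mice. The groups did not overlap. The difference was -0.81 (SE 0.14, 1.75-fold, adjusted p = 0.0128), and the call held whichever array was left out. None of 29 genes of fatty acid use and lipid storage on the list passed, 4 lay above 0, and the median was -0.10. The list mean, less its WT mean, ranged from -0.30 to -0.04 in H222P mice and -0.13 to 0.18 in WT mice, so that the groups overlapped. Of 52 genes of oxidative phosphorylation none passed (median -0.03), and of 23 of glycolysis and glycogen none (median 0.04). Pfkp, the platelet form of phosphofructokinase and not on that list, was called at 0.65 (1.57-fold, adjusted p = 0.0162, lost without H222P 549, highest p 0.0522). Its groups overlapped, and the call was also lost when the 10 arrays of 80 days were fitted alone (adjusted p = 0.0822). Car9, a carbonic anhydrase known to rise in hypoxia, read 5.81, 6.14, 5.88, 5.28 and 5.81 in H222P mice and 4.06, 4.56, 4.24, 4.87 and 4.36 in WT mice. No values overlapped. The difference was 1.37 (SE 0.20, 2.58-fold, adjusted p = 0.00167). Car9 has 2 probe sets, and its lowest difference under the alternatives that leave out no 80-day array was 1.07. Ckmt1, a mitochondrial creatine kinase of nonmuscle tissue, rose by 0.77 (SE 0.14, 1.71-fold, adjusted p = 0.0129). The calls of Car9 and Ckmt1 held whichever array was left out. Azin1, which frees ornithine decarboxylase for polyamine synthesis, read 6.99, 7.005, 7.01, 6.60 and 6.83 in H222P mice and 6.30, 6.15, 5.95, 6.12 and 6.18 in WT mice. Its groups did not overlap, its difference was 0.75 (SE 0.11, 1.68-fold, adjusted p = 0.00162), and its call held likewise.

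Foxo1, Zbtb16 and Map3k6 fell. Foxo1, a transcription factor that drives atrophy genes, read 5.75, 5.69, 5.77, 5.89 and 5.48 in H222P mice and 6.401, 6.08, 5.95, 7.001 and 6.66 in WT mice, and the groups came close without overlapping. Its difference was -0.70 (SE 0.15, 1.62-fold, adjusted p = 0.0472). The call was lost without any 1 of the H222P mice or WT 687, 691 or 692, with the adjusted p at most 0.126. Foxo1 has 2 probe sets, and the call was also lost over their mean. Zbtb16, the zinc finger protein PLZF, was called at -0.76 (1.69-fold, adjusted p = 0.0369, lost without any 1 H222P mouse other than 96 or any 1 of the WT mice, highest p 0.107), and Map3k6, a stress-activated kinase, at -0.84 (1.79-fold, adjusted p = 0.0174, lost without H222P 95 or WT 688 or 691, highest p 0.0577). In the atrophy and autophagy list Uchl1 rose and Foxo1 fell among 31, with a median of 0.02. Fbxo32, the muscle ubiquitin ligase atrogin-1, differed by -0.30 (adjusted p = 0.56). Of 37 proteasome genes none passed, though 32 lay above 0 with a median of 0.08. Of 18 heat shock proteins none passed (median 0.08), and Hspa1b, an inducible Hsp70, differed by 1.24 with an adjusted p of 0.0513. No gene of the integrated stress response (median -0.05), the unfolded protein response (median 0.08), NAD metabolism (median 0.09) or the metallothioneins and oxidative stress list (median -0.07) passed. Clock, which encodes an activator of the circadian oscillator, was called at 0.71 (1.64-fold, adjusted p = 0.0192, lost without H222P 95 or WT 688 or 692, highest p 0.0665), alone among 17 clock genes (median -0.05).

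Among the lower genes were 4 known from endothelial cells, a grouping made after the values were seen. The higher genes were not grouped in this way, so the 4 do not give the direction of endothelial genes. Adgrf5, an adhesion receptor, read 7.46, 7.45, 7.53, 7.37 and 7.28 in H222P mice and 8.12, 8.26, 8.05, 8.01 and 7.93 in WT mice. Every H222P mouse was lower than every WT mouse. The difference was -0.65 (SE 0.09, 1.57-fold, adjusted p = 0.00162) and held whichever array was left out. Gpihbp1, which carries lipoprotein lipase onto the capillary wall, was called at -0.68 (1.6-fold, adjusted p = 0.0263, lost without H222P 95 or 96 or any 1 WT mouse other than 692, highest p 0.0822). Cd300lg was called at -0.58 (1.5-fold, adjusted p = 0.018, lost without H222P 549 or 94 or WT 688 or 689, highest p 0.0626), and Hspa12b, a distant Hsp70 relative, at -0.52 (1.43-fold, adjusted p = 0.0246, lost without H222P 549, 94 or 97 or WT 688, 691 or 692, highest p 0.0805). Of the 23 markers on the endothelial list none passed, and the median was -0.10. All H222P values lay below all WT values in 3 and above in 0, against 1.09% and 2.42% of all genes. The list mean, less its WT mean, ranged from -0.22 to 0.08 in H222P mice and -0.08 to 0.07 in WT mice, so that the groups overlapped, and Bcl6b, an endothelial transcription factor, lay at 0.94 (adjusted p = 0.0634). Smooth muscle and pericyte, adipocyte and Schwann cell markers had medians of -0.03, -0.17 and -0.15, with no gene called. With 1 array left out, the smooth muscle median ran from -0.04 without WT mouse 691 to 0.01 without H222P mouse 96. The adipocyte median ran from -0.32 without H222P 96 to -0.01 without H222P 97, and the Schwann cell median from -0.28 without H222P 96 to 0.03 without WT 691. Of 3 red blood cell markers and 11 genes of neighbouring fast muscle and nerve none was called either. Their part in the differences of other genes was not tested.

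Fam171b was also among the largest differences. It read 5.94, 4.996, 4.85, 4.24 and 4.95 in H222P mice and 3.43, 3.87, 4.22, 3.40 and 3.69 in WT mice, and the lowest H222P mouse, 96, lay just above the highest WT mouse, 689. The difference was 1.27 (SE 0.22, 2.42-fold, adjusted p = 0.0109), and 4 of the 5 WT values lay below the array medians. Igsf1, an immunoglobulin family membrane protein of the X chromosome, rose by 0.73 (SE 0.11, 1.66-fold, adjusted p = 0.00348), and Klhl30, a Kelch protein, by 0.76 (SE 0.12, 1.7-fold, adjusted p = 0.00302). These 3 calls held whichever array was left out. That of Fam171b was lost when the 10 arrays of 80 days were fitted alone (adjusted p = 0.0716). Klhl30 has 2 probe sets, and its lowest difference under the alternatives that leave out no 80-day array was 0.55. The WT mean of Igsf1, 3.58, lay below the array medians. Ndrg4 was called at 0.87 (1.82-fold, adjusted p = 0.018, lost without H222P 549 or WT 687 or 691, highest p 0.0598), Tekt1, a tektin of cilia, at 0.80 (1.74-fold, adjusted p = 0.0394, lost without any 1 H222P mouse other than 96 or any 1 of the WT mice, highest p 0.119), and Rgs2, which dampens signals of G proteins, at 1.03 (2.04-fold, adjusted p = 0.0382, lost without any 1 H222P mouse other than 94 or any 1 of the WT mice, highest p 0.0991). Among lower genes, Lrtm1 read 7.22, 6.95, 7.06, 7.18 and 7.06 in H222P mice and 8.39, 8.24, 8.09, 8.09 and 8.20 in WT mice. Both groups were tight and more than 0.5 apart at their nearest. Its difference was -1.11 (SE 0.20, 2.15-fold, adjusted p = 0.015), and Fam240a fell by 1.13 (SE 0.16, 2.18-fold, adjusted p = 0.00162), both held whichever array was left out. Lrrc52, an accessory subunit of potassium channels, was called at -0.98 (1.98-fold, adjusted p = 0.0246, lost without H222P 94 or 97 or WT 687, 689 or 692, highest p 0.0728), Kank3 at -0.67 (1.59-fold, adjusted p = 0.0185, lost without H222P 549 or 94 or WT 688 or 692, highest p 0.0665), and Sema7a, a semaphorin anchored in the membrane, at -0.64 (1.56-fold, adjusted p = 0.0341, lost without any 1 H222P mouse other than 96 or any 1 WT mouse other than 689, highest p 0.0941). Of the called genes not yet named, Mttp, which loads lipid onto lipoproteins, was called at 0.49 (1.41-fold, adjusted p = 0.0263, lost without any 1 H222P mouse other than 97 or any 1 WT mouse other than 687, highest p 0.0797) and Adh7, an alcohol dehydrogenase, at 0.77 (1.7-fold, adjusted p = 0.0246, lost without H222P 549, 95 or 96 or WT 688 or 689, highest p 0.0794). Amot, angiomotin, was called at 0.63 (1.55-fold, adjusted p = 0.0246, lost without H222P 94 or 97 or WT 688, 691 or 692, highest p 0.0792). Brinp2 was called at -0.62 (1.53-fold, adjusted p = 0.0246, lost without H222P 549, 94 or 95 or WT 689, 691 or 692, highest p 0.0739) and Rbpms, an RNA-binding protein, at -0.47 (1.38-fold, adjusted p = 0.0363, lost without H222P 549, 94 or 97 or any 1 WT mouse other than 691, highest p 0.114).

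Of the 101 called genes 10 were small RNAs or gene models without a product name. Snord104, a small nucleolar RNA that guides methylation of ribosomal RNA, read 9.12, 9.01, 8.67, 8.79 and 8.87 in H222P mice and 7.80, 7.80, 7.64, 7.52 and 7.93 in WT mice. All H222P mice lay above all WT mice. Its difference was 1.15 (SE 0.11, 2.23-fold, adjusted p = 1.04e-05) and held whichever array was left out. Rpph1, the RNA of ribonuclease P, read 9.12, 10.32, 10.71, 9.77 and 10.14 in H222P mice and 10.95, 11.01, 10.95, 10.98 and 11.002 in WT mice. The WT values were nearly equal and the H222P values spread widely below them. Its difference was -0.96 (SE 0.20, 1.95-fold, adjusted p = 0.0317). The call was lost without H222P 549, 96 or 97 or any 1 of the WT mice, with the adjusted p at most 0.0794. Precursors of 2 miRNAs were called, Mir487b higher (0.57, 1.49-fold, adjusted p = 0.0457, lost without any 1 of the H222P mice or any 1 WT mouse other than 687, highest p 0.134) and Mir188 lower (-0.96, 1.95-fold, adjusted p = 0.0485, lost without any 1 of the H222P mice or WT 687, 689 or 692, highest p 0.134). Small RNAs were named after their values were seen. The mature forms found in RefSeq (GRCm38.p6) are printed 5′ to 3′ with the seed, bases 2 to 8, in capitals. None of those printed shares a seed with another. For Mir487b only the 5p form was found.
mmu-miR-487b-5p, chr12:109727347-109727367, plus strand: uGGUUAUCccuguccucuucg
mmu-miR-188-5p, chrX:7248031-7248051, minus strand: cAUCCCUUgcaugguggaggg
mmu-miR-188-3p, chrX:7247992-7248012, minus strand: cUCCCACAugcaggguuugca
The array reads the region of the precursor, so the mature amounts were not measured. Mir487b lies on chromosome 12, as does Rian.

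The same genes at 200 days were read in other mice, so no array is shared. The spread of a gene was estimated over the arrays of both ages, so its SE is the same at 80 and 200 days (0.16 for Nup210l). A gene with a small SE passes more readily at both ages, so the calls of the 2 ages are not independent. The shares of all genes called at 200 days, given below, do not allow for this. Of the 77 genes higher at 80 days, 63 were also called higher at 200 days, where 5.9% of all genes were called higher, 13 were not called and Chrna10 was called lower. The median difference of the 77 was 0.74 at 80 days and 0.82 at 200 days, with 49 of them larger at 200 days. Of the 24 lower genes 11 were called lower again, against 4.13% of all genes, 12 were not called and Map3k6 was called higher. Their median went from -0.78 at 80 days to -0.32 at 200 days. The genes were selected for passing at 80 days, so the medians of the 2 ages are given side by side and were not compared by a test.

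The change of the genotype difference between the ages was tested as an interaction, which passed for 194 genes (0.875%, with 0.518% up and 0.356% down) and for 14 of the 101. The number was 114 without H222P mouse 94 of 80 days, 118 without H222P 96, 123 without WT 691, 125 without WT 692 and 127 without WT mouse 24 of 200 days. It was largest among them for Fam171b, from 1.27 at 80 days to 3.45 at 200 days (adjusted p of the change = 0.00227). Nup210l went from 2.68 to 4.05 (adjusted p = 0.00626), Bex1 from 1.15 to 2.41 (adjusted p = 0.00506), Igsf1 from 0.73 to 1.95 (adjusted p = 0.000976) and Peg3 from 0.78 to 1.99 (adjusted p = 0.0184). Gdf11, Ndrg4 and Igf2 also had larger differences at 200 days. Foxo1, Zbtb16 and Map3k6, lower at 80 days, lay above 0 at 200 days, at 0.46, 0.41 and 0.79, with adjusted p of the change of 0.0157, 0.0183 and 0.00105. Chrna10 was higher at 80 and lower at 200 days (from 0.67 to -0.67, adjusted p = 0.00133). For Uchl1 (2.09 and 3.26, adjusted p = 0.0757), Cdkn1a (1.54 and 2.27, adjusted p = 0.22), Pcp4 (-1.47 and -1.74, adjusted p = 0.841) and Myl10 (-1.34 and -1.54, adjusted p = 0.762) the change did not pass. Among genes not called at 80 days the change was largest upwards for Ankrd1, from 1.03 to 3.75 (adjusted p = 0.0113), and Mt2, a metallothionein, from -0.14 to 2.41 (adjusted p = 0.00101), and downwards for Bcl6b, from 0.94 to -1.50 (adjusted p = 0.000802), and G0s2, an inhibitor of fat breakdown, from 0.42 to -1.80 (adjusted p = 0.00713).

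**Figure D5:**
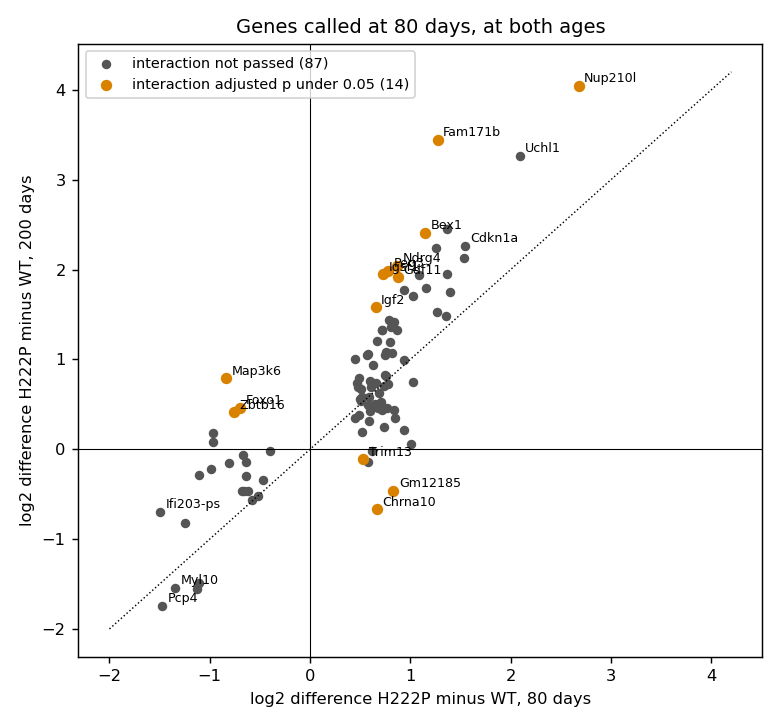
Each point is 1 of the 101 genes called at 80 days, with its log2 difference between H222P and WT soleus at 80 days on the x axis and at 200 days on the y axis, and the dotted line where both are equal. The 14 genes whose difference changed with age are in orange, with Map3k6, Zbtb16 and Foxo1 below 0 at 80 days and above 0 at 200 days.

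List by list, counts are to be read beside the shares of all genes. At 200 days 5.9% of all genes were called higher and 4.13% lower, against 0.347% and 0.108% at 80 days. The endothelial markers had no call at 80 days and 19 of 23 lower at 200 days, with medians of -0.10 and -0.64. Developmental and cardiac forms went from 2 to 9 of 12 higher, with medians of 0.32 and 1.38, and macrophage markers from 1 to 9 of 26 higher, with medians of 0.29 and 0.53. Oxidative phosphorylation went from no call to 10 of 52 lower, with medians of -0.03 and -0.19. The matrix list went the other way in its median, from 0.27 to 0.09, with 1 and 7 genes higher and 0 and 1 lower. The change of a list between ages was not tested. Of the 20 measured genes that the study chose for RT-qPCR, 8 were higher and 2 lower at 80 days, and since the study picked them from these arrays the count is not independent evidence.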

How the data were processed

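Each of 20 soleus muscles gave RNA for 1 array of the type GeneChip Mouse Gene 2.0 ST. The authors deposited log2 signals per probe set, normalized by RMA per their methods, while Partek is the tool in the submitters' processing notes. The files hold no detection calls and no counts, so the number of arrays limits the precision. All 20 arrays were fitted together with limma 3.58.1 in R 4.3.3 (lmFit and eBayes, a mean for each group of 5), the contrast being H222P minus WT at 80 days, and p-values were Benjamini-Hochberg adjusted over all 35916 probe sets. A gene was called at an adjusted p under 0.05. Of the probe sets 23521 had 1 symbol, 1820 several and 10575 none here. Whether the arrays are of separate litters is not stated, so p-values measure the spread between these mice. The number in brackets in each title was read as the mouse number. The fit was tested on simulated data.

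Genes were named by rule. They were the 20 highest and 20 lowest called genes whose groups do not overlap, the called members of each list (up to 6, or the 2 with the largest difference where none passed), Lmna, chosen genes of actin regulation and signalling, RT-qPCR genes of the study, the 6 genes furthest up and down in the interaction, and called genes near Lmna. Some items under this rule are not reported here. Genes named beyond it were chosen after their values were seen. The members and the lists were chosen with earlier results of these data known. Gene order and sequences are from RefSeq. Alternatives were the 10 arrays alone, a trended robust fit, array weights, a mean of at least 5, further quantile or median scaling, adjustment over named genes, the mean of a gene's probe sets, a 1.5-fold limit, each array left out, and, for the interaction, 200-day mice 6121 and 6122 averaged.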

Additional observations from a re-analysis of the deposited data

Results flagged for a closer look

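Within a group of 5, an array was singled out where its gap to the nearest other array, divided by the range of the group, was above 0.71. Chance singles out about 1 in 20 groups. Among the 202 groups of the 101 called genes 13 were so marked, where 10.1 would be by chance, and among 94 groups of list means 6, where 4.7 would be. For genes the ratio was 0.758 for Cdkn1a, where WT mouse 691 was highest, 0.718 for Rab26os, where H222P mouse 549 was highest, 0.741 for Tmem43, where WT mouse 691 was lowest, and 0.738 for Kank3, where H222P mouse 95 was highest. It was 0.792 for Arhgef39 with H222P mouse 94 highest, 0.713 for the pseudogene Rps15a-ps8 with H222P mouse 94 lowest, 0.764 for D730003I15Rik with H222P mouse 95 highest, 0.86 for Gga2 with H222P mouse 96 lowest, and 0.742 for Otub2 and 0.751 for Ppm1j with H222P mouse 549 highest. In WT mice it was 0.824 for Adh7 with mouse 688 lowest, 0.832 for Carhsp1 with mouse 691 lowest and 0.827 for Tmem87a with mouse 692 lowest. For list means it was 0.981 for the interferon response and 0.836 for the extracellular matrix, with H222P mouse 549 highest in both, and 0.777 for slow fiber genes, with the same mouse lowest. It was 0.871 for Schwann cell markers, with H222P mouse 96 highest, 0.775 for the circadian clock, with WT mouse 689 lowest, and 0.748 for imprinted genes, with WT mouse 687 lowest.

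The genotype difference changed between 80 and 200 days, by the interaction test, in 14 of the called genes. On the log2 scale it rose by 2.17 for Fam171b, 1.63 for Map3k6, 1.37 for Nup210l, 1.26 for Bex1, 1.22 for Igsf1, 1.21 for Peg3, 1.17 for Ndrg4 and for Zbtb16, 1.16 for Foxo1, 1.04 for Gdf11 and 0.93 for Igf2. The change was -1.34 for Chrna10, -1.30 for Gm12185, a gene model, and -0.64 for Trim13, a ubiquitin ligase. The WT means of Gm12185 (3.26) and Trim13 (3.67) at 80 days lay below the array medians and are not shown to be above background.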

How the results depend on the processing

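No gene called at 80 days changed sign under an alternative that tested it. Of the 74 called genes tested under every alternative 28 kept the call throughout, and of the 27 left out by the filter on a mean of at least 5, Nup210l among them, 6 kept it under all others. Among named genes that did not pass, the sign turned for Ccn2 with the mean of its probe sets (0.0122), for Myh4, which ran from -0.12 without WT mouse 687 to 1.20 without WT 688, for Lmnb1, from -0.000962 without WT 691 to 0.20 without H222P 94, and for Cfl1, from -0.00298 without H222P 549 to 0.13 without H222P 95. The difference of Uchl1 was 1.02 over the mean of its 2 probe sets, its other probe set showing almost no difference. Ahnak2, Car9 and Klhl30 also have 2 probe sets. Their lowest differences under the alternatives that leave out no 80-day array were 1.03, 1.07 and 0.55, and their calls held there. Foxo1 lost its call over the mean of its 2 probe sets and with the 10 arrays alone. The fit of the 10 arrays alone gave 72 higher and 20 lower genes and lost other calls too. Among them were Fam171b (adjusted p = 0.0716), Tnmd (0.12) and Peg3 (0.122). Cilp, Ndrg4, Clock, Pfkp, Slc38a4, Chrna10, Timp4, Adamts8, Rpph1, Lrrc52, Gpihbp1, Hspa12b, Rbpms and Mir487b also lost theirs there. With array weights 151 genes were higher and 50 lower, with 11 lower by at least 2-fold. With a mean of at least 5, 149 were higher, 42 lower and 308 passed the interaction. At least 1.5-fold was reached by 60 higher and 20 lower genes. Leaving out 1 array gave 36 to 82 higher genes, 11 to 21 lower genes, 13 to 23 higher and 5 to 9 lower by at least 2-fold, and 114 to 236 in the interaction. The other alternatives stayed within 1.5 times of each count. The cause of these shifts was not tested. No paired analysis was possible because the groups share no mouse number. With 5 arrays a group and no detection calls, differences of low signals could not be told from background, and a gene that did not pass is not shown to be equal between genotypes.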

Other observations

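A gene model, 2310020H05Rik, chosen after its values were seen, read 5.85 in H222P mouse 549 and 3.25, 3.09, 2.99 and 3.11 in the other H222P mice of 80 days. The 5 WT mice read 5.55 to 6.24. The difference of -2.20 did not pass (adjusted p = 0.121, limma), and mouse 549 alone lay among the WT values. At 200 days the H222P mice ranged from 3.03 to 7.10. Serpina3n, a secreted protease inhibitor, differed by 1.58 without passing (adjusted p = 0.160), and its groups overlapped.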
